A study of Mus musculus with 4 samples.

Results

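The *Eef1g*-cKO and control leptotene/zygotene spermatocytes were compared over 8 genes of the endoplasmic reticulum lectin cycle that folds glycoproteins: the lectin chaperones *Canx*, *Calr*, *Clgn* and *Calr3*, and the glycan-processing genes *Mogs*, *Ganab*, *Prkcsh* and *Uggt1*. They were found by gene symbol in a table of 11598 genes, where all 8 had a row, and all 8 passed the filter on low values, a mean of 1 FPKM or more (fragments per kilobase of gene length per 1000000 reads), which left 10475 genes to test. Ribosome-protected fragments (RPFs), the stretches of mRNA that a ribosome shields from nuclease, were sequenced from spermatocytes sorted by FACS from testes of 12 dpp (days postpartum) mice, with 2 libraries per genotype. In *Eef1g*-cKO mice a floxed *Eef1g*, which encodes a subunit of translation elongation factor 1, was deleted by *Stra8*-GFPCre, a Cre driven by a promoter active from spermatogonia on. The control libraries carry the genotype label wild type and came from mice of the same age and the same gate. The labels call the libraries of a genotype independent biological replicates, and the number of mice behind each library is not given in the sources used here. Since the 8 genes were picked by name with the genotype contrast of these libraries already known, their differences, and the calls of the fit over all genes, are given as a description, with no p-value.

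A glycoprotein enters the cycle with a glycan, attached in the endoplasmic reticulum, that ends in glucoses. Glucosidase I, encoded by *Mogs*, removes the outermost glucose, and glucosidase II, a complex of the catalytic subunit from *Ganab* and the regulatory lectin subunit from *Prkcsh*, trims those beneath it. Calnexin (*Canx*, anchored in the membrane) and calreticulin (*Calr*, soluble in the lumen) hold the monoglucosylated form while it folds, and UGGT1, the folding sensor, puts a glucose back on glycoproteins that are not yet folded, so that they bind again. Calmegin (*Clgn*) is a testis homologue of calnexin and CALR3, or calsperin, a testis homologue of calreticulin. Male mice without either are infertile through sperm proteins such as ADAM3 that fail to mature. Ribo-seq measures ribosomes on the mRNAs of these genes, not the proteins, and in bulk samples fewer cells of a type and less RNA per cell cannot be told apart.

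Start-site windows from RefSeq (GRCm38.p6, 250 bases before to 50 after the start) matched 7 of the 8 genes, not *Clgn*, with 2 windows for *Calr3*. They were searched on both strands for the endoplasmic reticulum stress response element (ERSE), the letters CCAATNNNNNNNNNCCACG with N for any base, known as a site for NF-Y and the unfolded protein response factor ATF6. *Canx* and *Calr* held a whole ERSE, which stood in 39 of the 32851 windows of all genes (0.119%). In *Canx* it lay on the gene's strand from 145 to 127 bases before the start. In *Calr* it lay on the opposite strand, from 162 to 144 bases before the start, so that it reads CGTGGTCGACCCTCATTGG on the gene's strand. The windows of *Calr3*, *Mogs*, *Ganab*, *Prkcsh* and *Uggt1* held none. The shorter CCAAT box, which overlaps the ERSE and stood in 37.4% of all windows, was in *Canx*, *Calr*, *Ganab* and both windows of *Calr3*, and the 250 bases before the *Canx*, *Calr* and *Ganab* starts are shown as the windows with an ERSE and that of the gene with the lowest fold change. Of the searched genes without an ERSE, *Calr3*, *Mogs*, *Prkcsh* and *Uggt1* had positive RPF differences and *Ganab* a negative one. A link between the motif and these differences was not tested. The sequences are written 5′ to 3′ on the gene's strand, from chr11:50325674-50325923 (minus strand), chr8:84846932-84847181 (minus strand) and chr19:8897807-8898056 (plus strand). Capitals mark the whole ERSE in *Canx* and *Calr* and the CCAAT boxes in *Ganab*.
Canx: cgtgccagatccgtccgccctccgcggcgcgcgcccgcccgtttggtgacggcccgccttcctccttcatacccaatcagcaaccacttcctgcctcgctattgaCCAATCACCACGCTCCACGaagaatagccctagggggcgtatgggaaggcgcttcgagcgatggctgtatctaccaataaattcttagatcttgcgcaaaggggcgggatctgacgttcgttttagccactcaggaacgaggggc
Calr: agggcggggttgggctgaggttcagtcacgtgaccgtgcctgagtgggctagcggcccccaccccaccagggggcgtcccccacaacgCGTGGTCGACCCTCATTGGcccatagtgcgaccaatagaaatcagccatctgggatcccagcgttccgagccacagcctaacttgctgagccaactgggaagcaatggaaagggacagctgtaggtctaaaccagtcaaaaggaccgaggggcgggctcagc
Ganab: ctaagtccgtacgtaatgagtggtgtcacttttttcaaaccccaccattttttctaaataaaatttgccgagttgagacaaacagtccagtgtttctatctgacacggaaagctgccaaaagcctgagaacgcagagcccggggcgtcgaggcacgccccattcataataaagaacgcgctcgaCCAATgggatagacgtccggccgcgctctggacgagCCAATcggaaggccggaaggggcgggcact

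**Figure D1:**
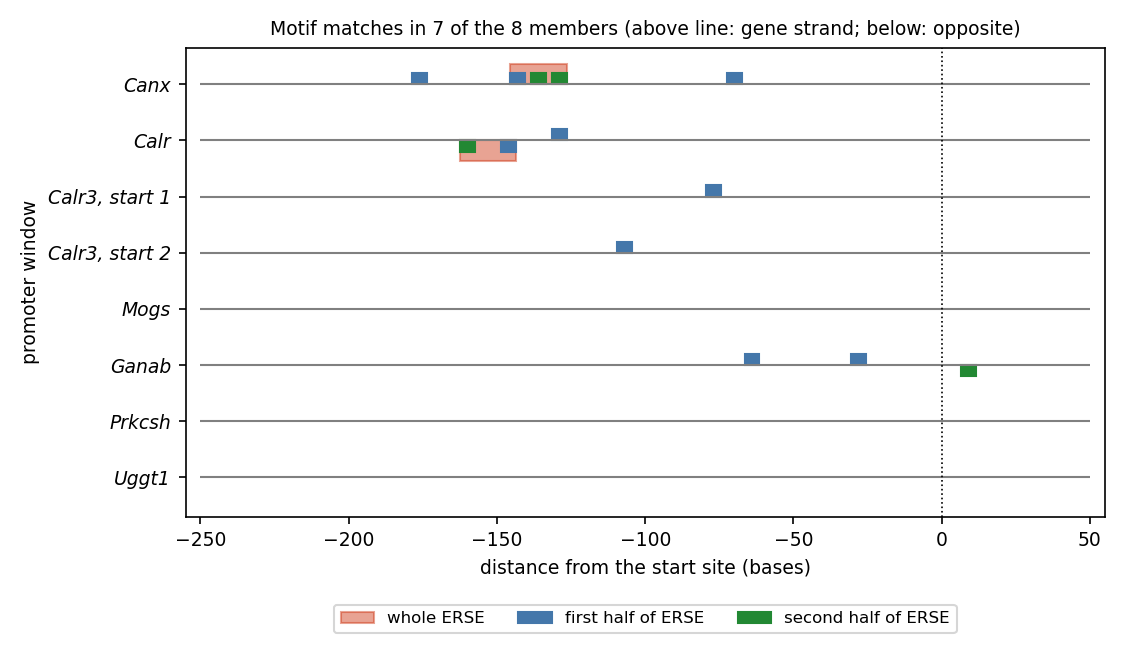
Matches of the ERSE and of its parts (the first, the CCAAT box, and the second, CCACG) in the start-site windows of 7 of the 8 genes, by distance from the start site in bases, with marks above the line on the gene's strand and below it on the opposite strand. A whole ERSE is seen in *Canx* and *Calr*, both between 162 and 127 bases before the start.

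Only 2 further stress elements were searched. The related shorter element ERSE-II (ATTGG and CCACG with 1 base between them, in 0.0365% of all windows) and the core of the unfolded protein response element (TGACGTGG, in 0.676%) were in no window of the 7 genes that had one, and none of the 3 elements was in the windows of the 19 of 22 companion genes, 4 of 4 glycan glucosylation genes and 11 of 15 listed client genes that had one. The letters CCACG alone, which are part of all 3 elements on 1 of the strands, were in *Canx*, *Calr* and *Ganab* and in 32.8% of all windows. A match is a run of letters and was not tested as a site.

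The libraries differed in depth by genotype. The controls held 2479504 and 1384282 reads on genes and the *Eef1g*-cKO libraries 223906 and 407979, a ratio of mean depths of 6.11, so a value in a knockout library rests on fewer reads. *Eef1g* itself, which spans deleted and remaining exons, had 107 and 58 reads in controls against 0 and 4 in *Eef1g*-cKO (27.6 and 26.8 against 0 and 6.26 FPKM), a log2 fold change of -3.39 ± 0.91 (SE, limma adjusted p = 0.0731). It was called decreased in 6 of 14 other settings, edgeR among them (-2.68, edgeR adjusted p = 0.00780), and was -1.96 without *Eef1g*-cKO replicate 1 and -4.82 without the other knockout library, called in both. The leptotene/zygotene markers were present in every library, with 11 of 12 analysed and a summed abundance of 1974 and 1636 FPKM in controls against 4014 and 3512 in *Eef1g*-cKO. Of these, 4 were called increased and *Stra8* was called decreased. Spermatogonial markers summed to 1403 and 1638 against 228 and 220 FPKM, most of it *Uchl1*, with negative differences for 10 of 10 genes and 5 called decreased. Pachytene markers summed to 486 and 372 against 1576 and 1442 FPKM over 5 of 8 genes, most of it *Hist1h1t*, which was called increased. Their differences were positive for 3 genes and negative for 2, with *Piwil1* (-1.46) called decreased at unadjusted p. Sertoli cell markers summed to 598 and 154 against 152 and 98.9 FPKM, most of it *Clu*. Their differences were negative for 8 of 8 genes, and none was called by limma (1 decreased at unadjusted p, 2 by edgeR and 0 by DESeq2). No analysed marker of these 4 lists was at 0 in both *Eef1g*-cKO libraries. Spermatid, peritubular, Leydig cell and macrophage markers summed to at most 55.9, 43.8, 5.82 and 3.14 FPKM in any library, and none was called by limma, also at unadjusted p, by edgeR or by DESeq2.

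Over all tested genes 2.87% were called increased and 4.97% decreased in *Eef1g*-cKO, by limma at an adjusted p under 0.05 with a log2 fold change beyond 1 in size, and the median log2 fold change was -0.23. Increases made up 36.6% of these calls, against 57.6% with each library centred on its median and 52.7% by DESeq2, and without either control library no gene of the table was called at adjusted p. Of the 8 genes *Calr* and *Clgn* were called increased and *Ganab* was called decreased. At unadjusted p and the same fold, which called 7.32% of all genes increased and 16.3% decreased, *Calr3* joined the increased genes. Both *Eef1g*-cKO libraries lay above both controls for 6 of the 8 (24.6% of all tested genes), below them for *Ganab* (37.7% of all tested genes), and among them for *Mogs*. The median log2 fold change of the 8 genes was 0.69. These shares stand beside the counts as background only, because the genes were picked with this contrast in view.

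**Figure D2:**
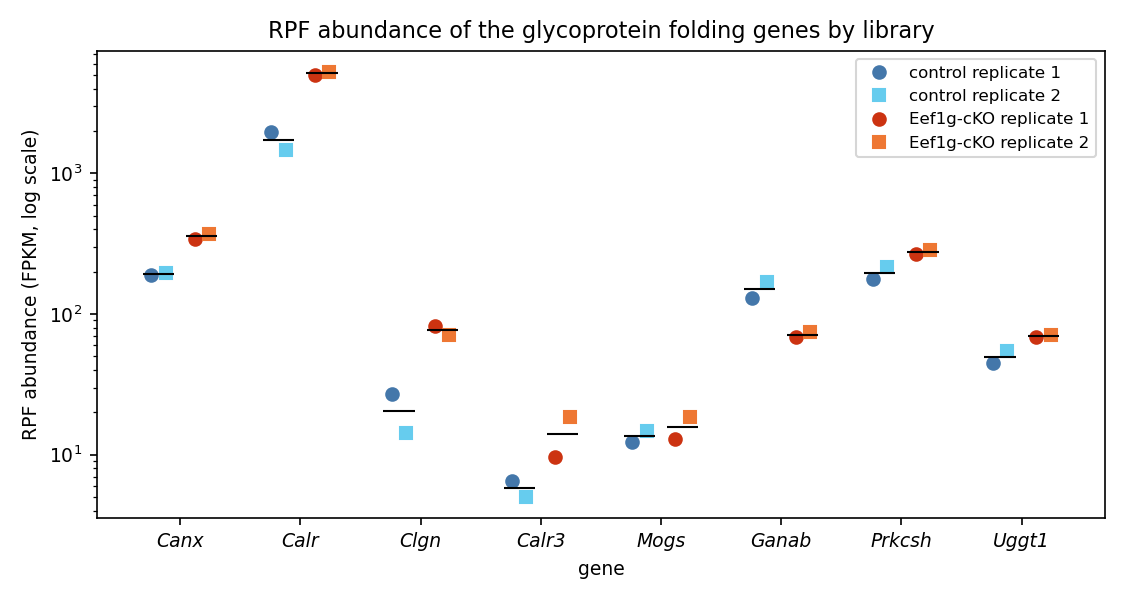
RPF abundance in FPKM (log scale) of the 8 genes in each of the 4 libraries, with a bar at the mean of each genotype. *Calr* lies far above the other genes, at 1476 to 5248 FPKM, and *Ganab* is the gene whose *Eef1g*-cKO libraries both lie under its controls.

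Among the lectin chaperones, calreticulin carried most of the footprints. *Calr* (chromosome 8, 84842088 to 84846931, minus strand, GRCm38) had 9522 and 3969 reads in the controls and 2180 and 4160 in *Eef1g*-cKO, or 1976 and 1476 against 5011 and 5248 FPKM. The knockout libraries lay well above the controls and close to each other. Mean abundance was 1726 ± 354 FPKM in the controls and 5129 ± 168 in *Eef1g*-cKO (SD, n = 2 libraries each), 2.97-fold higher, with a log2 fold change of 1.59 ± 0.32 (SE). By FPKM *Calr* ranked 38th and 43rd among all tested genes in the controls and 24th and 22nd in *Eef1g*-cKO. The call was made in 6 of 14 other settings of the analysis and was lost when any 1 of the 4 libraries was left out, with a log2 fold change of 1.80 without control replicate 1, 1.38 without control replicate 2, 1.62 without *Eef1g*-cKO replicate 1 and 1.55 without the other knockout library.

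The difference was smaller for calnexin. *Canx* (chromosome 11, 50293957 to 50325673, minus strand) had 2026 and 1162 reads against 327 and 649, which is 191 and 196 FPKM in the controls and 341 and 371 in *Eef1g*-cKO. Relative to their mean the control libraries differed by less than for any other lectin, and the genotypes did not overlap. Its mean was 193 ± 3.68 FPKM in the controls and 356 ± 21.5 in *Eef1g*-cKO, a log2 fold change of 0.88 ± 0.19, under the fold needed for a call. With each library centred on its median, which moved the median difference of all genes by 0.21, the value was 1.09 and *Canx* was called increased, together with *Calr* and *Clgn*.

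Calmegin had the highest fold change of the 8 genes. *Clgn* (chromosome 8, 83389790 to 83428552, plus strand) was read 152 and 45 times in the controls and 42 and 66 times in *Eef1g*-cKO, giving 26.9 and 14.3 against 82.3 and 71.0 FPKM. The lower knockout library was above the higher control, and the controls lay further apart relative to their mean than the knockout libraries. The mean was 20.6 ± 8.94 FPKM in the controls and 76.7 ± 8.01 in *Eef1g*-cKO, 3.72-fold higher, and the log2 fold change was 1.91 ± 0.34. In rank *Clgn* moved from 2695th and 4412th among the tested genes to 945th and 1076th. The call was made in 10 of 14 other settings, and it was lost without control replicate 1 (2.34), without control replicate 2 (1.47), at a pseudocount of 0.1 FPKM and with a prior variance fitted without a trend.

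*Calr3* (chromosome 8, 72424176 to 72443819, minus strand) was the least abundant of the 8 in every library. It had 30 and 13 reads in the controls and 4 and 14 in *Eef1g*-cKO, or 6.49 and 5.04 against 9.59 and 18.4 FPKM. A single read was worth 2.40 FPKM in *Eef1g*-cKO replicate 1, against 0.216 in control replicate 1. The genotypes did not overlap, but the knockout libraries differed by more than the gap between the lower of them and the controls. Mean abundance was 5.77 ± 1.03 FPKM in the controls and 14.0 ± 6.24 in *Eef1g*-cKO, with a log2 fold change of 1.09 ± 0.44. The value was 1.53 and called increased without *Eef1g*-cKO replicate 1, and 0.65 and not called without the other knockout library.

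The testis homologues could in principle share reads with their ubiquitous relatives. Over the coding sequences of the GENCODE M21 annotation, *Canx* and *Clgn* shared no identical stretch of 26 bases (the shortest fragment kept in size selection), with a longest identical stretch of 15, and *Calr* and *Calr3* shared none either, with a longest of 21. In the RefSeq annotation *Calr3* overlaps the non-coding gene *Gm46043*, and *Uggt1* overlaps *Mir6897*, *Gm18750* and *Gm39625*. The strand setting of the counting is not given in the sources used here, so reads of these overlaps cannot be told apart.

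The composition of the lectins was led by *Calr* in every library. *Calr* made up 89.8 and 87.3% of their summed FPKM in the controls and 92.1 and 91.9% in *Eef1g*-cKO. *Canx* made up 8.66 and 11.6% against 6.26 and 6.50%. The calmegin share was 1.22 and 0.844% against 1.51 and 1.24%, and that of *Calr3* was 0.295 and 0.298% against 0.176 and 0.323%. The *Calr* to *Canx* ratio was 10.4 and 7.54 in the controls and 14.7 and 14.1 in *Eef1g*-cKO, and *Canx* stood 7.08 and 13.7 times above *Clgn* in the controls and 4.14 and 5.22 times above it in *Eef1g*-cKO. Neither ratio overlapped between genotypes, and both differed more between the controls than between the knockout libraries.

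The glucosidase II subunits differed between genotypes in opposite directions. *Ganab* (chromosome 19, 8898057 to 8916742, plus strand), the catalytic subunit, had 1281 and 936 reads in the controls and 61 and 120 in *Eef1g*-cKO, or 130.0 and 170 against 68.6 and 74.0 FPKM. Both knockout libraries lay well under the lower control. The mean was 150 ± 28.4 FPKM in the controls and 71.3 ± 3.86 in *Eef1g*-cKO, 2.11-fold lower, with a log2 fold change of -1.05 ± 0.22. The call was made in 4 of 14 other settings. It was lost after median centring (-0.84) and when any 1 library was left out, with -1.24 without control replicate 1, -0.86 without control replicate 2, -0.997 without *Eef1g*-cKO replicate 1 and -1.11 without the other, and the difference was negative in all 14. The deleted gene *Eef1g* lies near *Ganab*, on the same chromosome and strand, at 8967041 to 8978180. A local effect of the edited allele and an effect of losing eEF1G cannot be told apart here, and neither was tested.

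*Prkcsh* (chromosome 9, 22002988 to 22014245, plus strand), the regulatory subunit, had 913 and 624 reads in the controls and 125 and 242 in *Eef1g*-cKO, or 176 and 216 against 267 and 284 FPKM. The knockout libraries lay above both controls, and the gap to the higher control was wider than the spread of the knockout libraries. Its mean went from 196 ± 27.9 to 275 ± 11.8 FPKM, a log2 fold change of 0.50 ± 0.21, which was called in none of the 14 settings. Within a library the regulatory subunit was thus 1.36 and 1.27 times as abundant as the catalytic one in the controls and 3.90 and 3.83 times as abundant in *Eef1g*-cKO. This ratio does not depend on how libraries were scaled, and its spread within a genotype was small beside the gap between them. The *Canx* to *Ganab* ratio was 1.47 and 1.15 against 4.97 and 5.01.

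**Figure D3:**
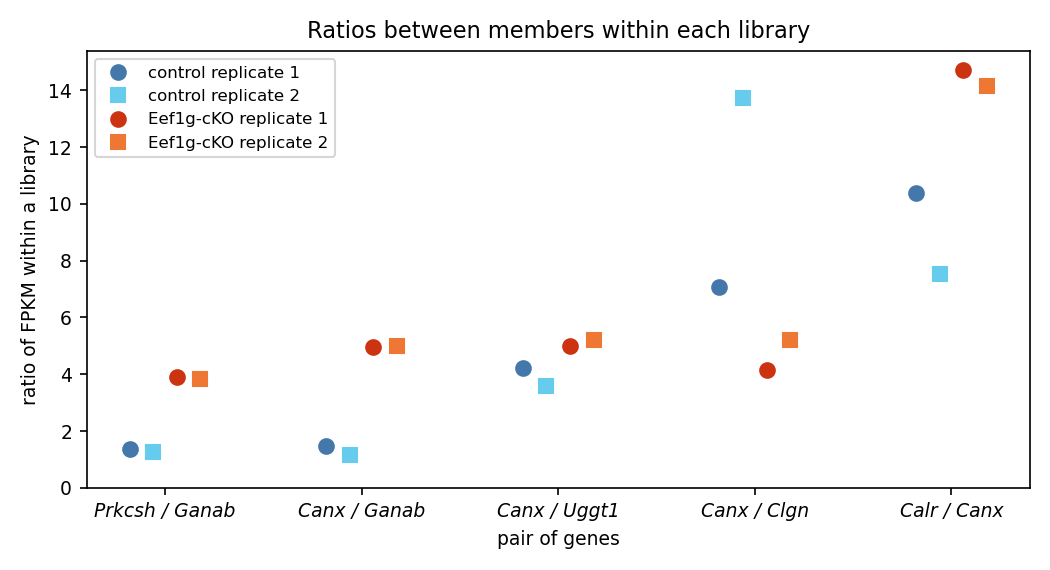
Ratios of FPKM between pairs of the genes within each of the 4 libraries. The ratios over *Ganab* are 1.15 to 1.47 in the controls and between 3.83 and 5.01 in both *Eef1g*-cKO libraries.

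*Mogs* (chromosome 6, 83115506 to 83118902, plus strand), which encodes glucosidase I, acts first in the cycle. It had 84 and 57 reads in the controls and 8 and 21 in *Eef1g*-cKO, or 12.2 and 14.9 against 12.9 and 18.6 FPKM. The genotypes overlapped, with means of 13.5 ± 1.86 and 15.7 ± 4.02 FPKM and a log2 fold change of 0.19 ± 0.33, and *Mogs* was the only one of the 8 genes whose sign turned in any setting (-0.06 with a library left out).

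*Uggt1* (chromosome 1, 36140028 to 36244320, minus strand), the sensor that returns unfolded glycoproteins to the lectins, had 1012 and 681 reads in the controls and 138 and 263 in *Eef1g*-cKO, or 45.2 and 54.5 against 68.3 and 71.4 FPKM. All knockout values lay above the controls. Mean abundance was 49.8 ± 6.56 and 69.8 ± 2.22 FPKM, and the log2 fold change of 0.48 ± 0.22 was not called in any setting. *Canx* stood 4.21 and 3.59 times above *Uggt1* in the controls and 4.99 and 5.19 times in *Eef1g*-cKO.

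Summed per library, the 8 genes held 6058 and 5409 reads in 1000000 on genes in control (95% Wilson intervals 5962 to 6155 and 5288 to 5532) and 12885 and 13567 in *Eef1g*-cKO (12426 to 13360 and 13216 to 13926). The intervals cover counting error only, and those of the genotypes were far apart. *Calr* made up 77.1 and 68.8% of the summed FPKM of the 8 genes in the controls and 85.5 and 85.2% in *Eef1g*-cKO. Spermatogonial (10 of 10) and Sertoli cell markers (8 of 8) had differences of the same sign as *Ganab*. For 9 of 11 leptotene/zygotene and 3 of 5 pachytene markers the sign was that of the lectins. The part of these cell types in these differences was not tested.

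By level the order of the genes was only partly resolved. In the controls *Calr* was followed by *Prkcsh* and *Canx*, whose ranges overlapped (176 to 216 and 191 to 196 FPKM), then by *Ganab*, *Uggt1*, *Clgn* and *Mogs*, the last pair again overlapping, and *Calr3*. In *Eef1g*-cKO *Calr*, *Canx* and *Prkcsh* were in separate ranges, *Clgn*, *Ganab* and *Uggt1* formed a group within 68.3 to 82.3 FPKM, and *Mogs* and *Calr3* overlapped at the bottom. The deposited gene lengths contain untranslated sequence, with the largest share in *Canx*, whose coding sequence of 1776 bases was 41.4% of the length used, against 90.4% for *Mogs*. Counted per kilobase of coding sequence, if all reads fell there, *Canx* had 460 and 473 reads per 1000000 in the controls and 822 and 896 in *Eef1g*-cKO, and *Prkcsh* 232 and 284 against 352 and 374. On that scale calnexin was above the regulatory subunit in all 4 libraries, and *Uggt1* (132 and 138 in *Eef1g*-cKO) stood above *Ganab* (93.9 and 101) and *Clgn* (102 and 88.1).

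The companions of the cycle, 21 genes that work beside the lectins or take glycoproteins out of the cycle, were counted in the same fit. Of these, 5 were called increased (2.87% of all tested genes were) and none decreased, and at unadjusted p 7 were increased and none decreased. No companion was called decreased by edgeR or DESeq2 either. Without control replicate 1 and without control replicate 2 none was called increased (5 and 5 at unadjusted p), and without *Eef1g*-cKO replicates 1 and 2 the counts were 5 and 7. The median log2 fold change was 0.59, with 17 positive and 4 negative differences, against -0.23 over all tested genes. The companion, glucosylation and client lists were also made with this contrast known, so the adjusted p-values of their genes are descriptive.

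Of the partners that act on lectin-bound glycoproteins, *Pdia3* (ERp57, the disulfide isomerase that docks on calnexin and calreticulin) had 211 and 211 FPKM in the controls and 331 and 303 in *Eef1g*-cKO, a log2 fold change of 0.59 ± 0.19 (limma adjusted p = 0.107). *Ppib*, a proline isomerase, had 69.7 and 55.7 against 79.1 and 79.2 FPKM (log2 fold change 0.34 ± 0.22, limma adjusted p = 0.337). Neither was called in any of 14 other settings, although their genotypes did not overlap. The selenoprotein partner of UGGT1, listed as *Sep15*, had 23.8 and 20.6 against 41.4 and 17.9 FPKM and overlapped (log2 fold change 0.29 ± 0.43, limma adjusted p = 0.672). *Uggt2*, the paralogue of *Uggt1*, had 3.16 and 1.22 against 9.60 and 6.02 FPKM from 51, 11, 14 and 16 reads, with a log2 fold change of 1.51 ± 0.53 that was not called (limma adjusted p = 0.125), though edgeR called it increased. *Pdilt*, the testis disulfide isomerase that partners calmegin, was not analysed here.

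The called companions were a membrane oxidoreductase and genes of the routes that lead out of the cycle. Other companions of these routes were not called, and *Os9* and *Mcfd2* among them had negative differences. *Lman2l*, a lectin of export from the endoplasmic reticulum, rose from 12.9 and 12.7 to 76.3 and 85.9 FPKM, a log2 fold change of 2.57 ± 0.23 (limma adjusted p = 0.0212), and *Lman2* (VIP36), another such lectin, from 31.4 and 39.0 to 123 and 123 FPKM (1.79 ± 0.22, limma adjusted p = 0.0260). *Tmx1*, a thioredoxin-like protein of the membrane that binds calnexin, rose from 34.6 and 49.8 to 167 and 179 FPKM (2.03 ± 0.25, limma adjusted p = 0.0259). The genotypes of each of these genes were far apart, and the controls of *Tmx1* lay further from each other, relative to their mean, than those of *Lman2l* and *Lman2*. *Edem2*, which starts the mannose trimming that marks glycoproteins for degradation, rose from 32.2 and 37.8 to 125 and 120 FPKM (1.78 ± 0.21, limma adjusted p = 0.0252), and *Erlec1*, a lectin that reads the trimmed glycan, from 10.9 and 12.0 to 35.7 and 39.2 FPKM (1.63 ± 0.26, limma adjusted p = 0.0341). The lowest differences among companions were those of *Edem1*, with 1.79 and 3.08 against 0.762 and 2.09 FPKM (-0.53 ± 0.56), and *Engase*, with 1.23 and 1.47 against 0 and 1.87 FPKM (-0.47 ± 0.67), both with overlapping genotypes. Both rest on at most 5 reads in each knockout library.

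**Figure D4:**
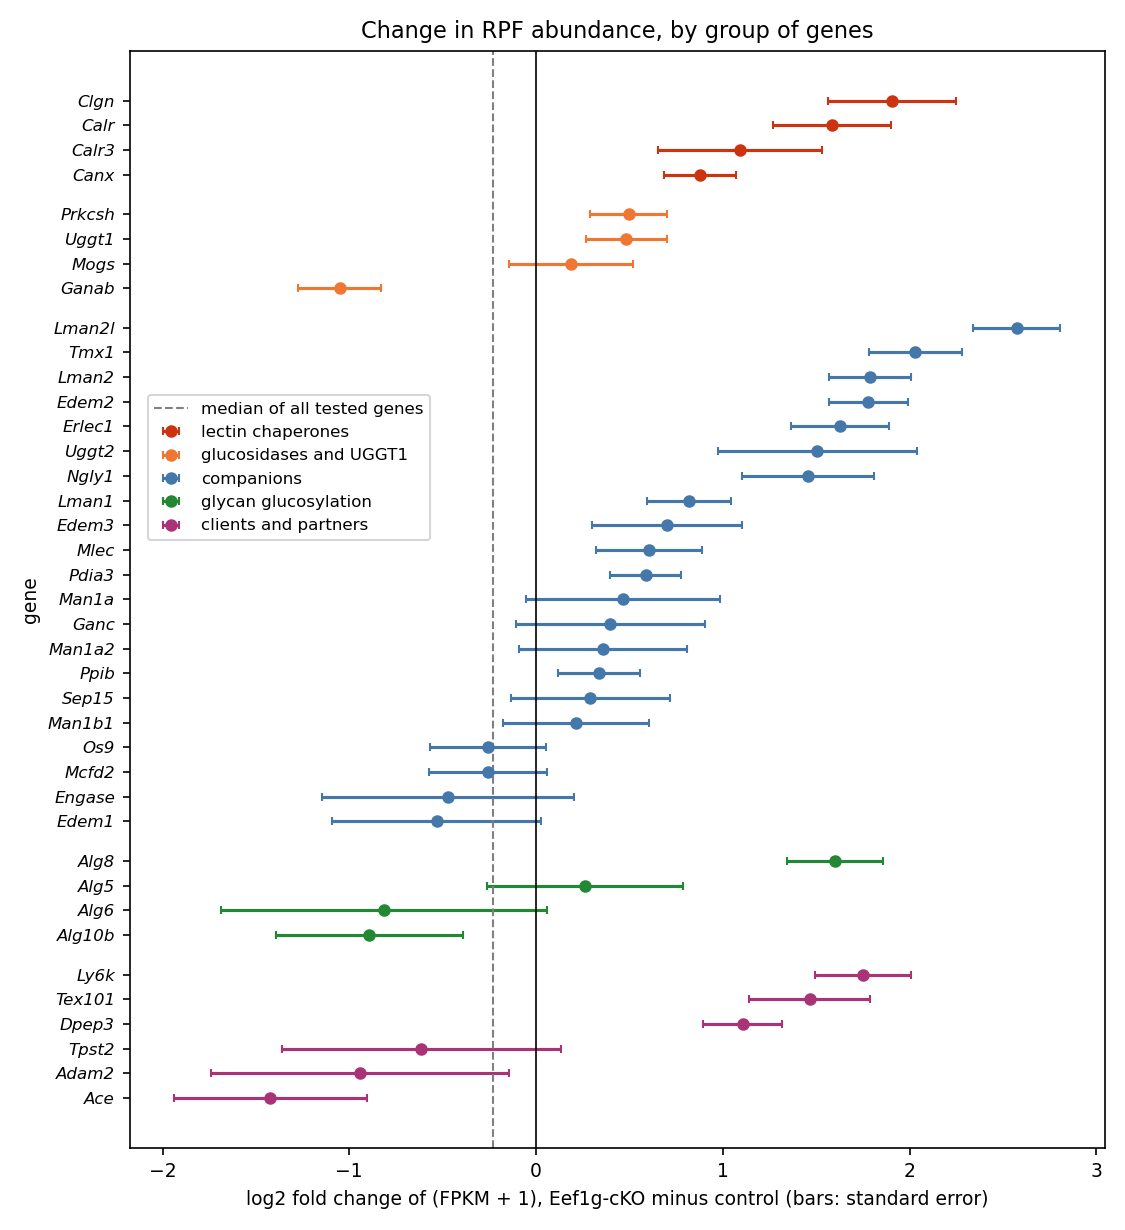
Log2 fold change of FPKM + 1, *Eef1g*-cKO minus control, with its standard error (limma, 2 libraries per genotype), for the 8 genes, 21 companions, 4 genes of glycan glucosylation and 6 clients and partners, with the median of all tested genes (-0.23) dashed. *Ganab* stands apart from the other glycan-processing genes, at -1.05.

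The glucoses that the cycle reads are added to the lipid-linked glycan before it is transferred. Of 4 genes for this step, *Alg8* was called increased, from 13.1 and 14.1 to 40.2 and 46.5 FPKM (log2 fold change 1.60 ± 0.26, limma adjusted p = 0.0334). The others lay between -0.89 and 0.26, and the median of the 4 was -0.28. In the fits on all 4 libraries none was called decreased, also at unadjusted p, by edgeR or by DESeq2. Without either control library the *Alg8* call was left only at unadjusted p.

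Calmegin and CALR3 are known for sperm surface glycoproteins, and 6 of 15 listed clients and partners were analysed here. *Adam3* was not among them. *Adam2* was, with 11 and 15 reads in the controls against 0 and 3 in *Eef1g*-cKO (log2 fold change -0.94 ± 0.80), and its genotypes overlapped. *Ly6k*, a GPI-anchored protein that joins TEX101, rose from 269 and 183 to 705 and 799 FPKM (log2 fold change 1.75 ± 0.26, limma adjusted p = 0.0307), and *Dpep3*, a dipeptidase that binds TEX101, from 386 and 443 to 885 and 898 FPKM (1.11 ± 0.21, limma adjusted p = 0.0405). *Tex101* had 1835 and 2291 against 6072 and 5281 FPKM, a log2 fold change of 1.47 ± 0.32 that was not called (limma adjusted p = 0.0519), though edgeR and DESeq2 called it increased. Its genotypes did not overlap. None was called decreased, also by edgeR or DESeq2, and at unadjusted p only *Ace* was, which is named after its values were seen: it had 5.95 and 5.33 against 0.845 and 2.32 FPKM from 78, 39, 1 and 5 reads (-1.42 ± 0.52). The median of the 6 genes was 0.25, with 3 positive and 3 negative differences. Without either control library none was called (3 increased at unadjusted p), and without either *Eef1g*-cKO library 1 was called increased, with 1 called decreased without *Eef1g*-cKO replicate 2.

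Genes with the most similar abundance over the 4 libraries were found for each lectin by Euclidean distance in log2(FPKM + 1) over all tested genes, a measure that reads level and difference together and rests on 4 points. For *Canx* they were *Slc25a31* (distance 0.164), *Pdia3* (0.343) and *Psmd12* (0.358). *Slc25a31*, a mitochondrial ADP/ATP carrier of germ cells, had 182 and 203 FPKM in the controls and 311 and 358 in *Eef1g*-cKO. For *Calr* they were the small nucleolar RNAs *Snord88a* (0.294) and *Snora3* (0.676), whose FPKM come from lengths of 72 and 120 bases and whose reads were not tested to be ribosome footprints, and *Tex101* (0.700). *Clgn* was nearest to *Spg7* (0.305), *Sept10* (0.399) and *Glt8d1* (0.402), and *Calr3* to *Rnf111* (0.126), *Arfip1* (0.194) and *Elmod2* (0.331). *Spg7*, a mitochondrial protease subunit, had 27.1 and 17.2 FPKM in control against 73.3 and 71.9 in *Eef1g*-cKO, with the higher control in the same library as for *Clgn*.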

How the data were processed

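Ribo-seq libraries of sorted leptotene/zygotene spermatocytes from 12 dpp testes were analysed, 2 per genotype, grouped by their titles. The authors deposited 1 table of 11598 genes. Its FPKM were computed by the authors per kilobase of gene length and per 1000000 reads on genes. A second block, counts normalized by the authors with a size factor per library (a signal, no longer counts), gave whole reads for 100% of values in each library (tolerance 0.01). Columns with the authors' own comparison (fold changes, errors, p-values) were not used. The submitters' processing notes name cutadapt, Bowtie, STAR, mm10 and hg38, and the paper names RiboMiner. The roles of these tools, the counter and the annotation are not given in the sources used here. Reads from fragments shared by several genes could change the values by an amount that cannot be told from the table.

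The members and the gene lists were chosen with earlier results of these data known. Adjusted p-values printed for list genes therefore describe the fit over all genes and are not a separate test. FPKM + 1 was log2-transformed, those averaging 1 FPKM or more were kept (10475), and genotypes were compared over all of them with limma 3.58.1 (lmFit, eBayes with a trend) in R 4.3.3, with Benjamini-Hochberg adjustment. A gene was called at an adjusted p under 0.05 where the log2 fold change was beyond 1 in size. For the Ribo-seq table the paper names a p threshold with this fold and no test, without saying whether p was adjusted, so calls at unadjusted p are also counted. The paper reports 502 increased and 451 decreased genes, the same counts as DESeq2 on the recovered reads at adjusted p. A fold change on this scale understates that of low genes. Alternatives were other pseudocounts and filters, median centring, a prior without trend, edgeR 4.0.16 and DESeq2 1.42.0 on the recovered reads, a replicate block, and leaving out each library. The fit was tested on simulated data. Named with values were *Eef1g*, the 8 members, *Pdia3*, *Uggt2*, *Ppib* and *Selenof* (*Pdilt* was on this list and not analysed here), every called gene of the companion, glucosylation and client lists (at most 6 a list), the 2 companions with the lowest fold change, and the 3 nearest genes of each lectin, *Tex101* among them. *Ace* and *Adam2* were named outside this rule. Marker lists were counted for leptotene/zygotene cells, spermatogonia, pachytene cells, spermatids, Sertoli, Leydig and peritubular cells and macrophages. Positions and start-site windows are from RefSeq (GRCm38.p6), matched by symbol, and coding sequences from GENCODE M21, with Python 3.11.15. Replicates differed by more than sampling noise: chi-square per degree of freedom was 13.2 over 9809 genes for control and 1.96 over 4728 for *Eef1g*-cKO.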

Additional observations from a re-analysis of the deposited data

How the results depend on the processing

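The sign of 7 of the 8 genes held in all 14 other settings, and their calls did not. Against 2 of the 8 called increased, the count was 0 at a pseudocount of 0.1 FPKM and with an untrended prior, 1 without a filter, 1 with the replicate block, and 0 to 2 with a library left out, where the 2, without *Eef1g*-cKO replicate 1, were *Clgn* and *Calr3* and not *Calr*. The 1 decreased gene, *Ganab*, gave 0 at a pseudocount of 0.1, without a filter, after centring, with an untrended prior, by edgeR with and without a filter, and with any library left out (0 to 0). At unadjusted p, 2 to 4 were increased in these settings and 0 to 1 decreased.

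Among companions (5 increased), 3 were called at a pseudocount of 0.1, 0 with an untrended prior and 0 to 7 with a library left out. Glucosylation genes (1 increased) gave 0 at a pseudocount of 0.1, 0 untrended and 0 to 1 with a library left out. Clients (2 increased, 0 decreased) gave 0 increased at a pseudocount of 0.1, 0 untrended, 0 to 1 increased and 0 to 1 decreased with a library left out. The signs of *Sep15* (-0.29) and *Engase* (0.29) turned without *Eef1g*-cKO replicate 1, and with a library left out they ranged from -0.29 to 0.88 and from -0.54 to 0.29.

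Across the table (301 increased, 521 decreased; 767 and 1705 at unadjusted p), limma called 29 and 47 at a pseudocount of 0.1 and 0 and 0 with an untrended prior (793 and 1811 unadjusted). edgeR called 705 and 904, or 689 and 876 without a filter, and DESeq2 502 and 451. Centring gave 521 and 383, so that increases made up 57.6% of calls against 36.6%. Leaving out a library gave 0 to 566 increased and 0 to 1471 decreased, with 0 and 0 called without control replicate 1 (585 and 941 unadjusted) or control replicate 2 (501 and 724 unadjusted). The replicate block gave 424 and 822, where the shared numbers did not pair the samples (r = -0.00804 across 10475 genes). The lone library in such fits is assumed to vary like the other genotype. The cause of these changes was not tested.

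With 5 and 8 reads for the median gene in the *Eef1g*-cKO libraries, against 60 and 34 in control, depth limits the values of *Calr3*, *Mogs* and *Uggt2*.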
